A study of Mus musculus with 6 samples.

Results

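Transcripts of 36 cell cycle and DNA replication genes were followed in regulatory T cells of 2 mouse genotypes, Blimp1 gfp/gfp and Blimp1 +/gfp. The genes were listed by symbol from what they are known to do, and each was represented by 1 array probe, the brightest that met the detection rule. The platform annotation named a probe for 32 of the 36, and 25 had a probe detected on at least 3 of the 6 arrays (detection p under 0.05) and were tested among 8743 genes in all. The samples were cells from the bone marrow of C57/B6 mice, 3 of each genotype, and each was hybridised to 1 Illumina BeadChip array. The gfp allele carries a gfp cassette in Prdm1, the gene of the transcriptional repressor Blimp-1. Blimp1 gfp/gfp cells have 2 such copies and, from general knowledge of the allele, lack functional Blimp-1, while Blimp1 +/gfp cells keep 1 intact copy, so every sample carries at least 1 gfp allele. The labels give no sort, age or sex, and neither pooling of animals nor separate animals for the 3 samples of a genotype is stated. The p-values therefore reflect only how much these 6 samples vary, and that variation may be technical.

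A T cell that divides must license and copy its DNA in S phase and then part the copies in mitosis. Cyclins switch on cyclin-dependent kinases at each step, the MCM helicase opens the DNA, and Aurora and Polo kinases drive chromosomes through the spindle. Most of these genes are silent in resting lymphocytes and are transcribed in waves, the replication genes largely through E2F factors and the mitotic genes largely through the MuvB, B-Myb and FoxM1 complexes, which read the CHR element, together with NF-Y at CCAAT boxes. Blimp-1 is known in plasma cell differentiation for ending the cell cycle, in part by repressing Myc. The comparison asks whether transcripts of this machinery differ between Blimp1 gfp/gfp and Blimp1 +/gfp regulatory T cells.

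The promoters of 4 tested genes are shown, chosen by the size of their difference among those holding a CCAAT box or a CHR element. Whether these motifs relate to the levels of the genes on the arrays was not tested. Each run is the 250 bases before the gene start, read in the direction of transcription, from the RefSeq table of build GRCm38.p6. Capitals mark CCAAT boxes (CCAAT, or ATTGG on the other strand), CHR elements (TTTGAA or TTCAAA) and E2F elements (TTTNGCGC on either strand). Mcm6, a subunit of the replicative helicase, lies on the minus strand with its window at chr1:128359706-128359955. Cks1b, a small partner of cyclin-dependent kinases, lies on the minus strand with its window at chr3:89418292-89418541. Pcna, the sliding clamp of DNA polymerases, has its window on the minus strand at chr2:132253181-132253430. Cenpa, the histone variant that marks centromeres, has its window on the plus strand at chr5:30666636-30666885.
Mcm6: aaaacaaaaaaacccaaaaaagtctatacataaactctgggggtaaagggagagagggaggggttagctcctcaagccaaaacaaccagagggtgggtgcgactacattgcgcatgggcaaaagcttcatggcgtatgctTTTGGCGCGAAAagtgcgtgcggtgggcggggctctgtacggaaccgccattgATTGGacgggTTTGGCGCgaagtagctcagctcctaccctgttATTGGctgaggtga
Cks1b: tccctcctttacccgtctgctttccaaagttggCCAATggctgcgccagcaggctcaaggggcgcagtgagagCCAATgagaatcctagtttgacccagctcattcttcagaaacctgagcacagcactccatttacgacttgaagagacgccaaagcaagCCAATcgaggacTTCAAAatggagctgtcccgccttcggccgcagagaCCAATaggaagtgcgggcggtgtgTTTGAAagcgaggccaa
Pcna: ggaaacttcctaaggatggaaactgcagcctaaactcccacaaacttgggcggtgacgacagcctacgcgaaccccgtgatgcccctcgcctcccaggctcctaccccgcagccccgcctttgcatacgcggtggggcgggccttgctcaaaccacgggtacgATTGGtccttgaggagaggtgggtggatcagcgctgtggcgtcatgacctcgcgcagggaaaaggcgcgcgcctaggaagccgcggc
Cenpa: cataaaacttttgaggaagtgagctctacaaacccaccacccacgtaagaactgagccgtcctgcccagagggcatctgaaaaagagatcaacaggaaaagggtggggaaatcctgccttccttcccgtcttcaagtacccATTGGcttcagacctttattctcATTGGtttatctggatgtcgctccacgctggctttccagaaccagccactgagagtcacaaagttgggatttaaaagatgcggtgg

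The Mcm6 window held 2 CCAAT boxes and 3 E2F elements, of which those starting 110 and 106 bases before the gene start overlap on opposite strands. The Cks1b window held 4 CCAAT boxes and 2 CHR elements, 1 of them 17 bases before the gene start. The Pcna and Cenpa windows held 1 and 2 CCAAT boxes and no E2F element spelled in this way. Both strands were searched in every case. Of the 36 genes, 30 had a promoter in the table, with 31 windows in all. A CCAAT box was present in 26 of the 31 windows (83.9%), against 33.8% of all 32851 promoters of the same length, and 19 windows held at least 2 (61.3%, against 10.1%). A CHR element was present in 9 windows (29.0%, against 5252 of the 32851), and an E2F element in 3 (9.68%, against 1.13%). The letters AGNGAAAG, the core that Blimp-1 binds, were in 0 of the 31 windows, against 7.30% of all promoters. These matches describe letters in a window and are not binding sites.

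Some samples stood apart on genes outside the cell cycle, whose lists were chosen with earlier results of these data known. Between 31.5% and 34.5% of the 46632 probes were detected per array. Blimp1 +/gfp replicate 3 had the highest summed intensity of 8 antigen presentation markers, 74000, against 17600 and 19550 in the other Blimp1 +/gfp samples and 13450 to 22080 in Blimp1 gfp/gfp. Of the 6 tested markers of that list 5 were highest of all arrays in this sample and 1, Siglech, was lowest, at 5.75 (log2). Flt3 of that list was not detected on any array. Blimp1 gfp/gfp replicate 1 had the lowest log2 intensity of Foxp3, the factor that defines the lineage (11.44, against 12.36 and 12.09 in the other Blimp1 gfp/gfp samples and 11.85 to 12.66 in Blimp1 +/gfp). All 6 regulatory T cell markers and all 7 T cell markers with a named probe were detected on every array. The arrays of 1 genotype shared 1 BeadChip, and the effects of BeadChip and genotype cannot be told apart. The Y-linked gene Eif2s3y was detected on 0 of 3 arrays in Blimp1 gfp/gfp, against 3 of 3 in Blimp1 +/gfp, so the sex of the animals cannot be told apart from the genotype either. Prdm1 itself was 7.14, 7.75 and 7.54 in Blimp1 gfp/gfp, against 5.76, 5.82 and 5.50 in Blimp1 +/gfp (log2 difference 1.79 ± 0.20 SE, limma adjusted p = 0.00744, over the alternatives 0.00168 to 0.815). It did not pass with probes detected on all 6 arrays, with the mean over probes or without Blimp1 gfp/gfp replicate 1. Where its probes lie relative to the cassette is not stated, so these values check nothing about the labels.

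No cell cycle gene of the list passed the test between genotypes, and the same genes varied widely and together between samples of 1 genotype. Over the 25 genes tested, 0 were past a Benjamini-Hochberg adjusted p of 0.05 in limma, against 360 of all 8743 genes (4.12%). At an unadjusted p under 0.05, 1 was higher and 1 lower in Blimp1 gfp/gfp (Mcm6 and Cks1b), where 18.5% of all genes lay under that value. The 3 values of each genotype were separate for the same 2 genes, 8% of the 25, against 25.8% of all genes. Of the 25 differences 15 were positive and 10 negative, with a median of 0.07 on the log2 scale, against a median of 0.03 over all genes tested. The standard errors were wide, with a median of 0.40 on the log2 scale, against 0.19 for all genes. The 95% interval of the log2 difference ran from -0.93 to 0.98 for Top2a. It was narrower for Mcm4 (-0.52 to 0.66) and wider for Cdc20 (-1.34 to 1.52).

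**Figure D1:**
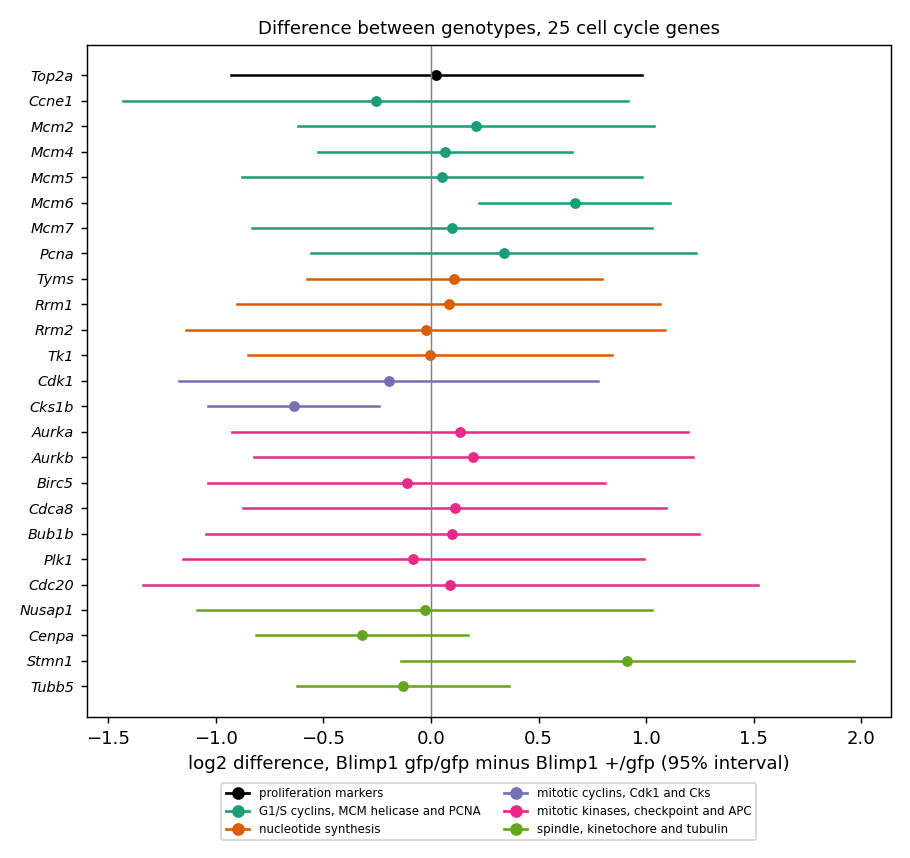
Difference between genotypes for the 25 cell cycle genes tested, as log2 intensity in Blimp1 gfp/gfp minus Blimp1 +/gfp (points) with its 95% interval from limma (bars), coloured by role. The points of 15 genes lie to the right of 0 and 10 to the left, and the intervals of Mcm6 and Cks1b alone leave out 0, neither of which passed the adjusted test.

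What the genes shared was their order over the samples. In all 25, Blimp1 gfp/gfp replicate 1 was the highest of its genotype and Blimp1 +/gfp replicate 3 the lowest of its own, a combination found in 24.5% of all 8743 genes. Blimp1 gfp/gfp replicate 1 was the highest of all 6 arrays for 19 of the 25 genes and Blimp1 +/gfp replicate 2 for the remaining 6, and Blimp1 +/gfp replicate 3 was the lowest for 20. After subtraction of each gene's mean over the 6 arrays, the median over the 25 genes was 0.69, -0.49 and -0.12 (log2) in Blimp1 gfp/gfp replicates 1, 2 and 3. In Blimp1 +/gfp replicates 1, 2 and 3 it was 0.13, 0.53 and -0.65. Both genotypes thus held a sample at each end, and their ranges overlapped. Gene by gene, Blimp1 gfp/gfp replicate 1 exceeded replicate 2 by a median of 1.17 on the log2 scale (2.24-fold, 25 of 25 genes), and Blimp1 +/gfp replicate 2 exceeded replicate 3 by a median of 2.30-fold (25 of 25). Over all genes tested these 2 median differences were 0.08 and 0.05 on the log2 scale. The median SD within a genotype was 0.61 for the 25 genes, against 0.24 for all genes. In 21 of the 25 (84.0%) the difference between genotypes was smaller than the range inside either genotype, as it was for 59.5% of all genes. Whether this came from samples holding more cells in cycle or from more of these transcripts per cell cannot be told apart in bulk RNA. The order was found on the same 6 arrays that it describes, and the genes are not replicates of each other.

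**Figure D2:**
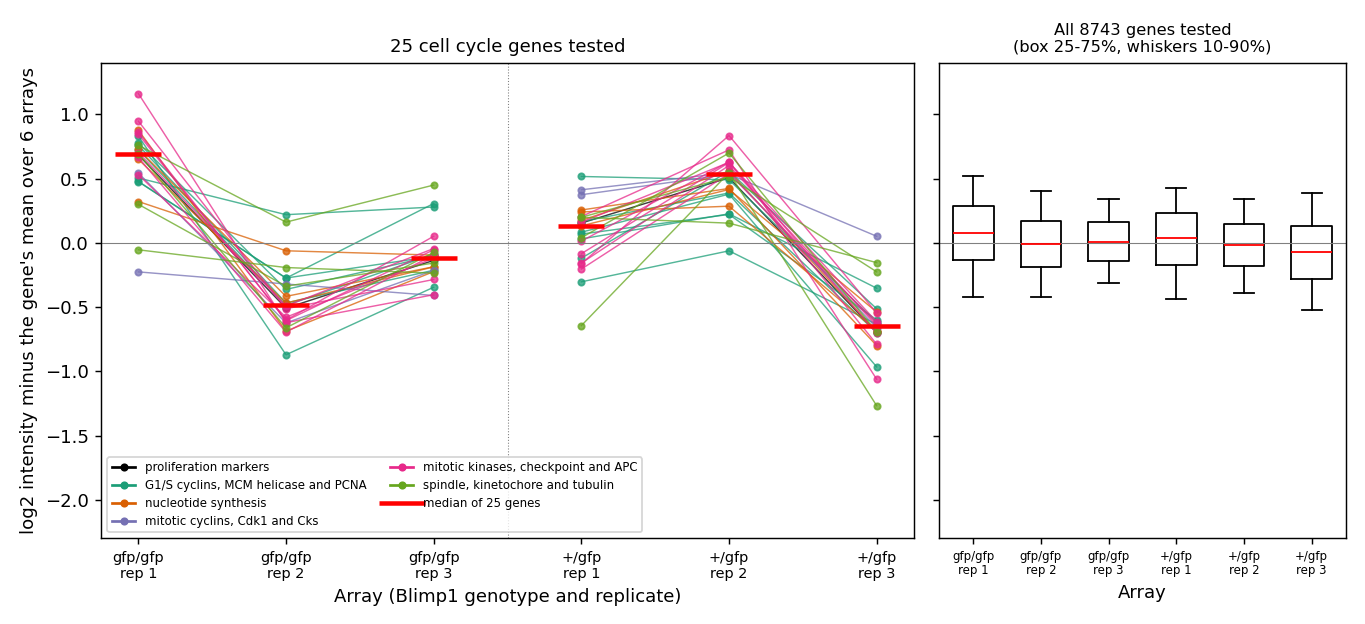
Log2 intensity minus each gene's mean over the 6 arrays (vertical axis) on each array (horizontal axis, Blimp1 gfp/gfp left of Blimp1 +/gfp), for the 25 cell cycle genes tested (left, lines joining the values of a gene within a genotype, coloured by role, with red bars at the median) and for all 8743 genes tested (right, boxes from the 25th to the 75th percentile, whiskers from the 10th to the 90th). The median of the 25 genes is 0.69 in Blimp1 gfp/gfp replicate 1 and -0.65 in Blimp1 +/gfp replicate 3, while the medians of all genes lie between -0.07 and 0.08.

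Top2a, the topoisomerase that untangles sister chromatids, showed this order plainly. Its log2 intensities were 11.13, 9.93 and 10.30 in Blimp1 gfp/gfp, against 10.60, 10.95 and 9.74 in Blimp1 +/gfp. The highest and the lowest value came from opposite genotypes, and the values of the genotypes overlapped. The difference was 0.03 ± 0.40 (SE; limma adjusted p = 0.985). Mki67, the usual marker of cycling cells, had no probe named in the annotation and was not analysed here.

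Of the genes that start and carry out DNA replication, 7 of 9 were tested and 6 had a positive difference, with a median of 0.10. Mcm6 had 12.62, 12.33 and 12.39 in Blimp1 gfp/gfp, against 11.81, 12.05 and 11.48 in Blimp1 +/gfp. Every Blimp1 gfp/gfp value lay above every Blimp1 +/gfp value, and the samples kept the common order within each genotype. The difference was 0.67 ± 0.19 (SE), a 1.59-fold higher normalized intensity, with a limma adjusted p of 0.113 (range over the alternatives 0.0485 to 0.273). A second Mcm6 probe, on which the values of the genotypes overlapped, differed by 0.35. Mcm2, Mcm4, Mcm5 and Mcm7, subunits of the same helicase, differed by 0.21, 0.07, 0.05 and 0.10, none of them past the test (limma adjusted p between 0.824 and 0.970). The 6 subunits form 1 complex, and the probe of Mcm3 is not named in the annotation and was not analysed here.

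Pcna had 9.08, 8.33 and 8.91 in Blimp1 gfp/gfp, against 8.69, 8.99 and 7.64 in Blimp1 +/gfp. These values overlapped, with a difference of 0.34 ± 0.38 (SE; limma adjusted p = 0.715). Ccne1, the cyclin that brings cells from G1 into S phase, had 9.10, 7.40 and 7.92 in Blimp1 gfp/gfp, against 8.79, 8.76 and 7.65 in Blimp1 +/gfp. Its range inside Blimp1 gfp/gfp alone was 1.70 on the log2 scale, beside a difference of -0.26 ± 0.49 (SE; limma adjusted p = 0.852). Its relative Ccne2 was detected on 0 Blimp1 gfp/gfp arrays and 2 Blimp1 +/gfp arrays and was not tested.

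The 4 enzymes that make DNA precursors were all tested, and their differences lay between -0.02 and 0.11. Tyms, which makes thymidylate, had 10.71, 10.33 and 10.30 in Blimp1 gfp/gfp, against 10.63, 10.68 and 9.71 in Blimp1 +/gfp. Rrm1, the large subunit of ribonucleotide reductase, had 11.48, 10.34 and 10.57 in Blimp1 gfp/gfp, against 11.01, 11.18 and 9.95 in Blimp1 +/gfp. Rrm2, the small subunit, had 10.48, 8.91 and 9.38 in Blimp1 gfp/gfp, against 9.78, 10.16 and 8.91 in Blimp1 +/gfp. The values of the genotypes overlapped for each of them. The limma adjusted p was 0.895 for Tyms, 0.952 for Rrm1, 0.989 for Rrm2 and 0.996 for Tk1, thymidine kinase, whose difference was -0.00495 ± 0.36 (SE). For each of the 4 enzymes Blimp1 gfp/gfp replicate 1 was the highest array and Blimp1 +/gfp replicate 3 the lowest.

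Among the cyclins, Cdk1 and the Cks proteins that act at entry into mitosis, 2 of 6 were tested. Cdk1, the kinase that triggers mitosis, had 10.39, 9.22 and 9.63 in Blimp1 gfp/gfp, against 10.26, 10.39 and 9.18 in Blimp1 +/gfp. It differed by -0.20 ± 0.41 (SE; limma adjusted p = 0.866). Cks1b had 5.45, 5.35 and 5.26 in Blimp1 gfp/gfp, where its probe was not detected on any array, against 6.05, 6.21 and 5.72 in Blimp1 +/gfp, where it was detected on all 3. By the group means it was at least 1.22-fold lower in Blimp1 gfp/gfp, a bound taken against the lowest detected signal of each array. The fitted difference was -0.64 ± 0.17 (SE), with a limma adjusted p of 0.0955 (range over the alternatives 0.0167 to 0.296). Cks1b met the detection rule only through the genotype in which it was higher, so its separate values are no evidence of their own. The probes of Ccna2 and Ccnb2 were not detected on any array, that of Cks2 was detected on 1, and Ccnb1 had no probe named in the annotation, so none of the mitotic cyclins was tested.

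Of the 9 mitotic kinases, chromosomal passenger, checkpoint and anaphase-promoting genes, 7 were tested, 5 with a positive difference, and the median was 0.10. Aurkb, the kinase of the chromosomal passenger complex, had 10.48, 9.03 and 9.69 in Blimp1 gfp/gfp, against 9.43, 10.17 and 9.01 in Blimp1 +/gfp. Aurka, the kinase of the spindle poles, had 10.57, 9.10 and 9.65 in Blimp1 gfp/gfp, against 9.55, 10.31 and 9.06 in Blimp1 +/gfp. Birc5, which encodes the passenger protein survivin, had 11.49, 10.38 and 10.84 in Blimp1 gfp/gfp, against 11.12, 11.59 and 10.35 in Blimp1 +/gfp. All 3 genes spanned more than 1 log2 unit inside each genotype, and their values overlapped between genotypes. The differences were 0.20 ± 0.43 for Aurkb, 0.13 ± 0.45 for Aurka and -0.11 ± 0.39 for Birc5 (SE; limma adjusted p of 0.872, 0.921 and 0.926). Cdca8, a further passenger protein, Bub1b, a checkpoint kinase, and Plk1, the Polo kinase, differed by 0.11, 0.10 and -0.08. Cdc20, the activator of the anaphase-promoting complex, spanned 10.79, 9.01 and 9.22 in Blimp1 gfp/gfp, against 9.83, 10.35 and 8.57 in Blimp1 +/gfp, and differed by 0.09 ± 0.60 (SE; limma adjusted p = 0.966); its single values are given because its range was seen to be wide. Ube2c, the ubiquitin-conjugating enzyme of that complex, was not detected on any array, and Bub1, a checkpoint kinase, was detected on 1.

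Of the 6 genes of the spindle, centromere and tubulin 4 were tested. All 4 had the common order, and their differences lay between -0.32 and 0.91. Stmn1, which encodes the microtubule-destabilising protein stathmin, had 9.18, 8.58 and 8.87 in Blimp1 gfp/gfp, against 7.78, 8.96 and 7.15 in Blimp1 +/gfp. Blimp1 +/gfp replicate 2 lay among the Blimp1 gfp/gfp values and the other Blimp1 +/gfp samples below them. Its difference was the widest of the 25, at 0.91 ± 0.44 (SE), and did not pass (limma adjusted p = 0.341, range over the alternatives 0.0949 to 0.575). Cenpa had 12.96, 12.82 and 12.77 in Blimp1 gfp/gfp, against 13.21, 13.52 and 12.78 in Blimp1 +/gfp. Tubb5, a beta-tubulin, had 13.74, 13.10 and 13.28 in Blimp1 gfp/gfp, against 13.64, 13.59 and 13.28 in Blimp1 +/gfp. Both overlapped between genotypes, with differences of -0.32 ± 0.21 for Cenpa and -0.13 ± 0.21 for Tubb5 (SE; limma adjusted p of 0.478 and 0.812). Nusap1, a microtubule-bundling protein, differed by -0.03 ± 0.45 (SE). Kif11, the spindle motor, was not detected on any array, and Kif20a, a motor of cytokinesis, had no probe named in the annotation.

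The order was not shared by every probe of these genes. For 12 of the 25 genes 16 further probes met the detection rule, and 7 of the 16 had Blimp1 gfp/gfp replicate 1 highest and Blimp1 +/gfp replicate 3 lowest in their genotypes, against 24.5% of all genes tested. The 2 further probes of Cdc20 did not: 1 of them had 5.99, 7.03 and 6.81 in Blimp1 gfp/gfp, against 6.08, 7.17 and 6.82 in Blimp1 +/gfp. A second probe of Tubb5 likewise had its lowest Blimp1 gfp/gfp value, 9.39, in replicate 1, against 10.43 and 9.94 in replicates 2 and 3. Both further probes of Birc5 kept the order. Dim further probes of Plk1, Rrm2, Tk1 and Tyms, each detected on 3 of the 6 arrays, lacked it. So did a brighter one of Mcm6, at 11.52, 11.63 and 11.20 in Blimp1 gfp/gfp. What these further probes bind was not tested.

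Because the samples of a genotype lay so far apart, the sign of the difference depended on which samples were included. Without Blimp1 gfp/gfp replicate 1 the median difference fell to -0.32 and 3 of 25 genes were positive. Without Blimp1 +/gfp replicate 3 it was -0.26 with 2 of 24 positive. It was 0.30 with 22 of 25 positive without Blimp1 gfp/gfp replicate 2, and 0.32 with 21 of 24 positive without Blimp1 +/gfp replicate 2. In each of the 6 omissions 0 genes of the list passed in limma, with 1 or 2 under an unadjusted p of 0.05.

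**Figure D3:**
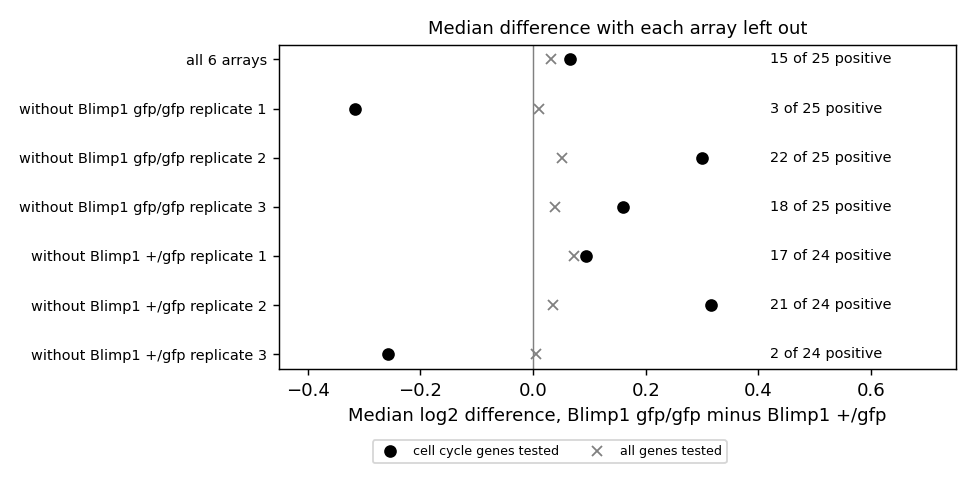
Median log2 difference (horizontal axis, Blimp1 gfp/gfp minus Blimp1 +/gfp) of the cell cycle genes tested (filled points) and of all genes tested (crosses), with all 6 arrays and with each array left out in turn. The median of the cell cycle genes runs from -0.32 to 0.32 and that of all genes from 0.01 to 0.07, and the text at the right gives how many of the cell cycle genes had a positive difference.

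Other genes of replication and mitosis, outside the 36, showed the same order over the samples. Of 36 further replication factors tested, 32 (88.9%) had Blimp1 gfp/gfp replicate 1 highest and Blimp1 +/gfp replicate 3 lowest in their genotypes, as did 32 of 38 further genes of mitosis and cytokinesis (84.2%), against 24.5% of all genes. In limma 0 of the 36 and 0 of the 38 passed, against 4.12% of all genes. Under an unadjusted p of 0.05 lay 0 and 1, against 18.5% of all genes, and the median differences were 0.06 and 0.05. The 2 replication factors with the smallest p were Lig1, the ligase that joins Okazaki fragments (0.71 ± 0.31 SE; limma adjusted p = 0.290), and Rpa1, which coats single-stranded DNA (0.30 ± 0.15 SE; 0.361). Kif23, a motor of cytokinesis, had 9.40, 8.50 and 8.94 in Blimp1 gfp/gfp, against 10.38, 10.74 and 9.68 in Blimp1 +/gfp. It kept the common order inside each genotype, with every Blimp1 gfp/gfp value below every Blimp1 +/gfp value, and differed by -1.32 ± 0.33 (SE; limma adjusted p = 0.0859, range over the alternatives 0.0138 to 0.373). With the mean over its 2 probes the difference was -0.48. Cdc25b, a phosphatase that activates cyclin-dependent kinases, differed by 0.33 ± 0.16 (SE; limma adjusted p = 0.339).

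The 2 lists of regulators upstream of this machinery differed in how many genes had the order. Of 13 G1 cyclins, kinases and kinase inhibitors tested, 0 had the combination above, against 24.5% of all genes, and 0 passed in limma, against 4.12%. At an unadjusted p under 0.05 there were 1 higher and 1 lower, where 18.5% of all genes lay under that value. Cdkn1c, which encodes the inhibitor p57, had 6.30, 6.36 and 6.29 in Blimp1 gfp/gfp, against 7.28, 6.79 and 7.49 in Blimp1 +/gfp (difference -0.87 ± 0.20 SE; limma adjusted p = 0.0691, range over the alternatives 0.0409 to 0.221). Cdkn2b, which encodes the inhibitor p15, had 9.78, 10.40 and 8.86 in Blimp1 gfp/gfp, against 8.50, 8.13 and 7.97 in Blimp1 +/gfp (difference 1.48 ± 0.38 SE; limma adjusted p = 0.0914, range 0.0469 to 0.228). These inhibitors lay on separate sides of their genotypes, in opposite directions, and neither passed. Of 12 RB, E2F and mitotic transcription factors tested, 7 had the combination (58.3%, against 24.5% of all genes) and 0 passed in limma. By the unadjusted p 3 were higher and 1 was lower, against the same 18.5% of all genes. Rb1, the retinoblastoma repressor of E2F genes, differed by 0.60 ± 0.16 (SE; limma adjusted p = 0.106), and Tfdp2, a partner of E2F factors, by 0.50 ± 0.18 (SE; 0.193). Myc, named here as a known target of Blimp-1 and not for its p, differed by 0.03 ± 0.30 (SE; limma adjusted p = 0.980).

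Klf2 was the 1 gene of these lists that passed. Of 16 antiproliferative and quiescence genes tested 1 passed as higher and 0 as lower, against 4.12% of all genes in either direction. The common order was found in 1 (6.25%), against 24.5% of all genes. Klf2, a transcription factor of resting T cells, had 12.97, 12.92 and 13.04 in Blimp1 gfp/gfp, against 11.44, 11.43 and 11.75 in Blimp1 +/gfp. Unlike the cell cycle genes it lay within 0.32 inside each genotype, and it rose by 1.44 ± 0.15 (SE; limma adjusted p = 0.00716, range over the alternatives 0.000814 to 0.0456). Btg1, an antiproliferative gene, was lowest in Blimp1 gfp/gfp replicate 1, at 9.38, against 12.04 and 11.84 in the other Blimp1 gfp/gfp samples and 11.61 to 12.31 in Blimp1 +/gfp, and it was named after its values were seen.

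**Figure D4:**
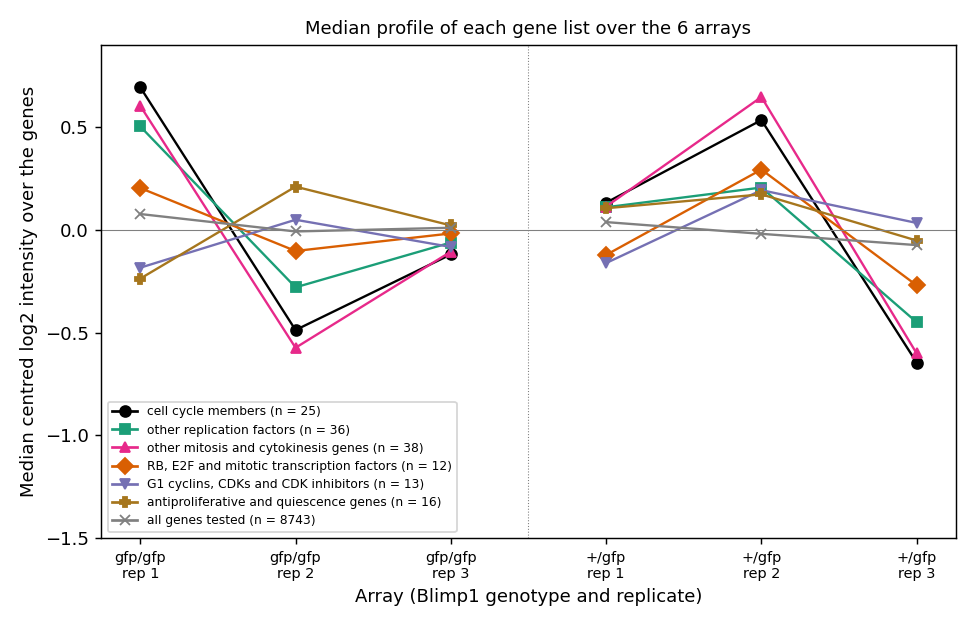
Median over the genes of each list of the log2 intensity minus the gene's own mean (vertical axis) on each of the 6 arrays (horizontal axis, Blimp1 gfp/gfp left of Blimp1 +/gfp, with lines only to join the points of a list). The 25 cell cycle genes and the further replication and mitosis genes are high in Blimp1 gfp/gfp replicate 1 and Blimp1 +/gfp replicate 2 and low in Blimp1 +/gfp replicate 3, while the antiproliferative list has its lowest median, -0.24, in Blimp1 gfp/gfp replicate 1.

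Markers of other cell types also differed between the samples, as sums of normalized intensity over each list. The 9 mature myeloid markers, 8 of them with a named probe, summed to 2023, 1013 and 667.6 in Blimp1 gfp/gfp replicates 1, 2 and 3, against 1970, 3658 and 11580 in Blimp1 +/gfp. Itgam was not detected on any array. Most of the sum in Blimp1 +/gfp replicate 3 was Fcer1g, at 12.91 (log2). Camp was instead lowest of all arrays in that sample, at 5.84, and highest in Blimp1 +/gfp replicate 2, at 7.39. In Blimp1 +/gfp replicates 2 and 3, S100a8 was 9.49 and 9.97, and S100a9 was 8.23 and 8.89. The 11 B cell progenitor markers, 9 with a named probe, summed to between 1523 and 3020 in Blimp1 gfp/gfp, highest in replicate 1, against 1116 to 2413 in Blimp1 +/gfp. Dntt, Rag2 and Pax5 were not detected on any array. Most of each sum was Cd79b, at 11.18 (log2) in Blimp1 gfp/gfp replicate 1. Of the 4 tested markers 3 were highest of all arrays in that sample. Ebf1 was instead highest in Blimp1 gfp/gfp replicate 3, at 7.17. Vpreb1, not tested, was lowest of all arrays in Blimp1 gfp/gfp replicate 1, at 5.34. The 12 erythroid markers, 10 with a named probe, summed to between 2524 and 9099 in Blimp1 gfp/gfp, lowest in replicate 1, against 1811 to 12210 in Blimp1 +/gfp, highest in replicate 3, and Gata1 and Ermap were not detected on any array. The 2 highest erythroid sums, in Blimp1 gfp/gfp replicate 2 and Blimp1 +/gfp replicate 3, came from the arrays with the lowest cell cycle medians, and the myeloid and antigen presentation sums were highest in the Blimp1 +/gfp sample in which the cell cycle genes were lowest. Most of those 2 erythroid sums was Hba-a1, at 12.90 and 13.40 (log2). Alas2, Car2 and Slc4a1 were also highest on those 2 arrays. Tfrc of the erythroid list was instead lowest in Blimp1 +/gfp replicate 3, at 9.42, and had the order of the cell cycle genes. Klf1 of that list was highest of all arrays in Blimp1 gfp/gfp replicate 1, at 6.26, and was 5.50 in Blimp1 +/gfp replicate 3. It was detected on all 3 Blimp1 gfp/gfp arrays and on 0 Blimp1 +/gfp arrays. The 6 regulatory T cell markers summed to between 24950 and 38420 in Blimp1 gfp/gfp, lowest in replicate 1, against 44700 to 47220 in Blimp1 +/gfp, and 1 of them, Tnfrsf18, fell in Blimp1 gfp/gfp (-1.11 ± 0.18 SE; limma adjusted p = 0.0242). The 8 markers of granulocyte and myeloid progenitors summed to between 818.3 and 1416 in Blimp1 gfp/gfp, highest in replicate 1, against 1312 to 1447 in Blimp1 +/gfp, and Elane, Prtn3, Ctsg, Cd34 and Ms4a3 were not detected on any array. Kit, a receptor of progenitors and mast cells from the same list, had 9.20, 7.47 and 7.77 in Blimp1 gfp/gfp, against 9.03, 9.59 and 7.46 in Blimp1 +/gfp, with the order of the cell cycle genes. Of the 3 genes of that list tested, 2 had this order, found in 24.5% of all genes. The third, Gfi1, was instead highest of all arrays in Blimp1 +/gfp replicate 3, at 9.87. The 6 CD8 and NK cell markers, 5 with a named probe, summed to between 3190 and 6428 in Blimp1 gfp/gfp, highest in replicate 1, against 5318 to 5834 in Blimp1 +/gfp, and Ncr1 was not detected on any array. The 7 mature B and plasma cell markers, 6 with a named probe, summed to between 4763 and 5112 in Blimp1 gfp/gfp, against 6842 to 8538 in Blimp1 +/gfp, with Jchain and Sdc1 not detected on any array. Most of each sum was Xbp1, at 11.97 to 12.19 (log2) in Blimp1 gfp/gfp, against 12.64 to 13.00 in Blimp1 +/gfp. Of the 3 tested genes of this list 2 had a negative difference and 1, Fcrla, a positive one (0.82). The 9 T cell markers, 7 with a named probe, summed to between 84380 and 109400 in Blimp1 gfp/gfp, lowest in replicate 1, against 100200 to 112800 in Blimp1 +/gfp. The part of these cells in the order of the cell cycle genes was not tested.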

How the data were processed

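RNA of 6 samples, 3 per genotype, was amplified and labelled with Cy3 per the labels. The authors deposited mean bead intensities of 46632 probes, whose medians of 157.4 to 164.8 and minima of at least 67.85 show no background subtraction, with a detection p-value per probe and array per the file headers. They also deposited log2 values, which differed from limma's neqc of the intensities by at most 0.0975. BeadStudio and limma were used per the submitters' processing notes, with no settings given in the sources used here. Intensities were processed with neqc (offset 16, quantile normalization, log2) in limma 3.58.1 under R 4.3.3, so differences of dim probes are understated. Gene names came from the platform annotation, with 29976 probes of 1 symbol, 10 of several and 16646 of none. Entrez IDs of 29921 probes matched RefSeq, and 0 symbols changed.

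Of the probes detected (p under 0.05) on at least 3 of 6 arrays, 1 per gene was used, that with the highest mean deposited log2 value. Genotypes were compared with lmFit and eBayes (Blimp1 gfp/gfp over Blimp1 +/gfp), and p-values were adjusted by Benjamini-Hochberg over 8743 genes. The fit was tested on simulated data. Group values are means or single values of 3 arrays. The genes, lists and tests were chosen with earlier results of these data known. Named were all members, with single values for at most 3 per role by size of difference, and of other lists the genes that passed or else the 2 with the smallest p. Cdc20 (single values), Btg1, Myc and the cell type markers named singly were added outside this rule after their values were seen. Alternatives were the deposited log2 values, other normalizations, filters, averaging of probes, a trended robust variance, array weights, a replicate block, another threshold and omission of each array. Promoters were searched with Python 3.11.15, and figures drawn with matplotlib 3.10.9.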

Additional observations from a re-analysis of the deposited data

How the results depend on the processing

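With the deposited log2 values, median scaling, cyclic loess, both other filters, the mean over probes and the replicate block, 0 cell cycle genes passed, as with each array left out. With an intensity trend and robust variance 1 passed (Mcm6, limma adjusted p = 0.0485), with array weights 1 (Cks1b, 0.0167) and at an adjusted p under 0.1, 1 (Cks1b). Array weights gave Blimp1 gfp/gfp replicate 3 a weight of 4.41 and Blimp1 gfp/gfp replicate 1 one of 0.518, and left 3 of 25 differences positive. Leaving out an array, 2 to 22 were positive. The count of changed genes, 360, became 827 with array weights, 171 with the replicate block and 668 at an adjusted p under 0.1, and ran from 71 to 347 with an array left out (without Blimp1 +/gfp replicate 1 and replicate 3). It was 183, 126 and 97 without Blimp1 gfp/gfp replicate 1, 2 and 3, and 92 without Blimp1 +/gfp replicate 2. Median scaling moved the median of all genes from 0.03 to 0.16 and that of the cell cycle genes to 0.23 (20 of 25 positive), with 71.0% of changed genes higher, against 58.9%. Same-numbered samples did not deviate together in every pair (correlations of their deviations from the genotype means 0.189, -0.076 and 0.001), so the replicate numbers were not taken as pairs. The cause of these changes was not tested. The 3 arrays per genotype limit what can be told, since the SD of the array medians inside a genotype was 0.47 (log2).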

Other observations

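The genes outside every list whose values lay nearest to the median profile of the 25 cell cycle genes, by root mean square distance over the 6 arrays, were sought after the values were seen. The nearest 5 were Fignl1, which acts in DNA repair, Spag5, a protein of the mitotic spindle, Sgo2a, which protects sister chromatid cohesion, Fndc9 and Cenpp, a centromere protein. Their distances were 0.0766, 0.0823, 0.0852, 0.103 and 0.115 log2 units. Spag5 had 10.74, 9.35 and 9.96 in Blimp1 gfp/gfp, against 10.10, 10.49 and 9.27 in Blimp1 +/gfp.

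The 5 genes nearest to the mirror image of that profile were Ncmap, Slc9a9, Cers4, Matk and Il6ra, at distances of 0.131, 0.160, 0.161, 0.186 and 0.189 log2 units. Ncmap had 8.32, 9.50 and 8.94 in Blimp1 gfp/gfp, against 8.89, 8.73 and 9.70 in Blimp1 +/gfp. It was lowest in Blimp1 gfp/gfp replicate 1, where the median of the cell cycle genes was highest. It did not differ between genotypes past the threshold (limma adjusted p = 0.855). No theme was tested for either set of neighbours.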
